A study of Homo sapiens with 8 samples.

Results

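Genes of ETS transcription factors and their partners, 10 in all, were examined for binding of PHF20 and PHF20L1 in U2OS cells. They were GABPA, GABPB1, GABPB2, ELK1, ELK3, ELK4, ELF1, ELF2, ETS1 and ETV6, which makes 10 of 20033 protein-coding genes of the annotation. The genes were chosen by the sequence in the peaks: the ETS recognition sequence was the leading sequence in the same peak lists, and these genes encode proteins known to bind it or to join such a protein. That sequence is therefore given as a description of the members, with no test. Binding was counted where a peak touched the promoter window of any transcript of a gene, which extends 1000 bp before and 500 bp past its transcription start site (TSS), and the remaining gene body was also searched.

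ChIP-Seq recovers the DNA attached to a protein with an antibody, and a peak is a region with more recovered reads than in an input sample that saw no antibody. U2OS is a human osteosarcoma cell line. The cells overexpressed PHF20 with a triple HA tag at its N terminus (N-3xHA PHF20, 2 ChIP libraries and 1 input) or PHF20L1 with the tag at the N terminus (1 ChIP library) or the C terminus (2 ChIP libraries, with 2 inputs for PHF20L1 in all), and all ChIP used an HA antibody. The GFP-positive cells were sorted, the untagged proteins of the cells were still present, and binding was thus measured for overexpressed protein in 1 cell line. Each protein has 1 final list, 4147 peaks for PHF20 and 723 for PHF20L1, which kept the peaks of the replicate with the best signal where the remaining replicates also had a call. The authors used a stricter threshold in the best replicate than in the others, and the number of other replicates differed between the proteins. A peak in 1 list alone is therefore not a measured difference in binding. The lists give a start and an end for each peak and no height, read count or value per library, so that no depth, spread between replicates or interval can be attached to a peak. A gene missing from a list had no call at the thresholds used, and the protein may still have been there.

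PHF20 and PHF20L1 are related proteins that read methylated lysines and associate with the NSL complex, a histone acetyltransferase assembly found at promoters of widely expressed genes. The authors report separate NSL complexes that hold PHF20 or PHF20L1 but not both. ETS factors share a DNA-binding domain, the ETS domain, that recognizes a GGAA core, and CCGGAAGT is the extended form favored by many of them. GABP is an ETS factor made of a DNA-binding subunit, encoded by GABPA, and a subunit that activates transcription, encoded by GABPB1 or GABPB2, and it is known for binding promoters of mitochondrial and other housekeeping genes. ELK1, ELK3 and ELK4 form the ternary complex subfamily, which joins serum response factor at growth-responsive genes.

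The longer ETS forms inside the PHF20 peaks of the members are shown first, because they are the stretches in which the members resemble or differ from the sequence that led to their choice. Each is printed from 5′ to 3′ on the strand that reads GGAA, with 10 bases on either side in lower case and the ETS form in capitals, from hg38.
GABPA, chr21:25734905-25734912, minus strand: ggagccagggCCGGAAGTagagcggagg
GABPA, chr21:25735078-25735084, minus strand: gccaggggacCCGGAAGcacttaccct
GABPB1, chr15:50355682-50355687, plus strand: tcctgggagaCGGAAGgacagccaag
ELK4, chr1:205632026-205632033, minus strand: agcccctcccCCGGAAGTgacgtgtagc
ELF2, chr4:139084500-139084505, minus strand: gggcgcggggCGGAAGgatcgcgttg
ELF2, chr4:139084651-139084656, plus strand: tcacgctctgCGGAAGaaaagtctgc

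The full form of 8 bases, CCGGAAGT, stood in the GABPA and the ELK4 peak, 1 copy in each. The form of 7 bases, CCGGAAG, had 1 further copy in GABPA. The form of 6 bases, CGGAAG, had 1 further copy in GABPB1 and 2 in ELF2. The GABPB2 peak held none of these 3 forms. All searches were made on both strands, and since each form contains the shorter ones, a core was counted under its longest form.

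PHF20 had a peak in a promoter window of 5 of the 10 genes: GABPA, GABPB1, GABPB2, ELK4 and ELF2. PHF20L1 had a peak at 2 of the 10, GABPA and GABPB2, and at both it overlapped the PHF20 peak. ELK1, ELK3, ELF1, ETS1 and ETV6 had no peak of either protein, at a promoter or in the gene body. Among all coding genes, 4148 had a PHF20 promoter peak (20.7%), 766 had a PHF20L1 promoter peak (3.82%) and 743 had both, overlapping (3.71%). The members' shares thus stood above those of all coding genes, as a description of 10 genes with no test.

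By role, the 3 GABP genes all had a PHF20 peak, and 2 of the 3 had a PHF20L1 peak. Of the 8 members that encode a protein with an ETS domain, among them GABPA, PHF20 was found at 3 (37.5%) and PHF20L1 at 1 (12.5%). In the ternary complex subfamily the peak was at ELK4 and not at ELK1 or ELK3. In the ELF pair it was at ELF2 and not at ELF1.

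**Figure D1:**
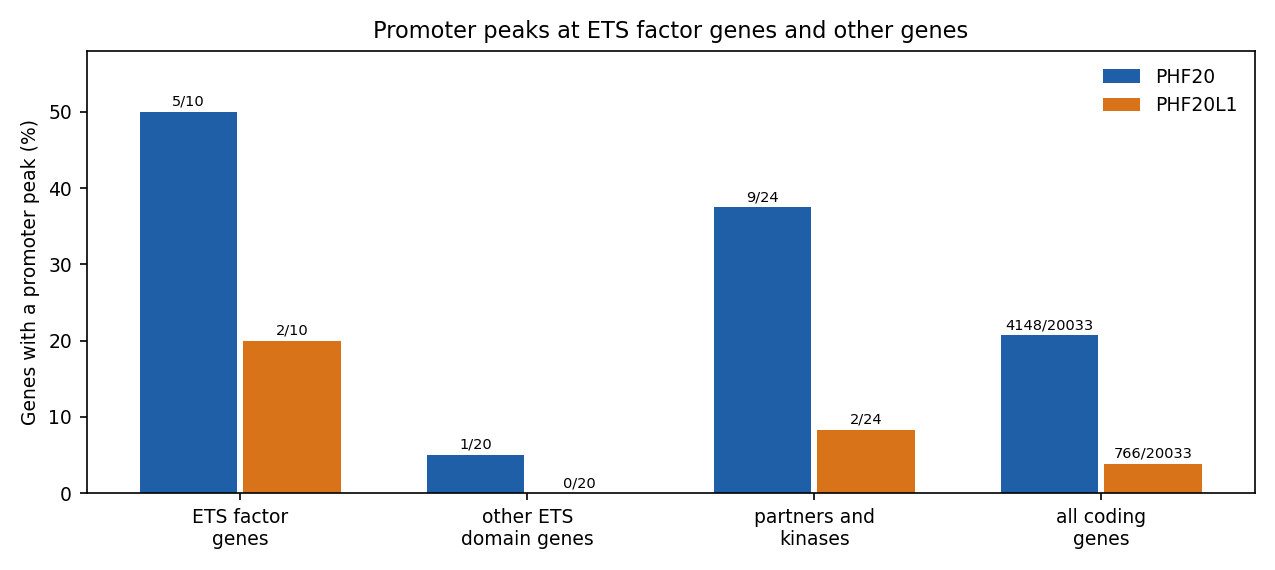
Percent of genes with a PHF20 (blue) or PHF20L1 (orange) peak in a promoter window, for the 10 ETS factor genes, 20 other ETS domain genes, 24 partner and kinase genes and all coding genes, with the count above each bar. The ETS factor genes stood at 5 of 10 and 2 of 10, and the other ETS domain genes at 1 of 20 and 0 of 20. All coding genes stood at 20.7% and 3.82%.

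GABPA, on the plus strand of chromosome 21 (25734570 to 25772460, ENSG00000154727.11), encodes the DNA-binding subunit of GABP and held the widest of the member peaks. Its PHF20 peak spanned chr21:25734478-25735707, 1230 bp, and 93.6% of the PHF20 peaks were narrower. The peak touched the windows of 3 of 3 transcripts. Measured from the TSS of the MANE transcript, the 1 transcript per gene that RefSeq and Ensembl agreed to use, it reached from 494 bp upstream to 735 bp downstream, and its centre lay 120 bp downstream. Within that peak 607 bp were exonic and 129 bp intronic in this transcript.

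The PHF20L1 peak at GABPA spanned chr21:25735203-25735672 and was 470 bp wide, with 83.3% of the PHF20L1 peaks narrower. It lay wholly inside the PHF20 peak and covered 38.2% of it. It did not reach the MANE TSS: it began 231 bp downstream, ended 700 bp downstream and touched the windows of 2 of 3 transcripts. The centres of the PHF20L1 and PHF20 peaks were 465 bp and 120 bp downstream of the MANE TSS. The PHF20L1 peak lay over another GABPA start site, that of the transcript GABPA-203 at 25735389, 48 bp from its centre. It also lay over start sites of a neighbouring gene, given below.

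Both longer ETS forms of GABPA lay in the part of the PHF20 peak that PHF20L1 did not share, 290 bp and 118 bp before the PHF20L1 peak began. The PHF20 peak held 14 GGAA cores in all, 7 of them inside the PHF20L1 peak, and these 7 stood in none of the longer forms. Of the 706 PHF20 promoter peaks within 20% of its width, 29.6% held CCGGAAGT, and 24.6% held at least the 2 copies of CCGGAAG found here. The median count of GGAA cores in those peaks was also 14.

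GABPA shares its promoter with ATP5PF, which encodes a subunit of the mitochondrial ATP synthase and is read in the opposite direction. The start sites of 8 ATP5PF transcripts lie within 1000 bp, and all 8 were under the PHF20 peak, the nearest 55 bp from the GABPA TSS. The PHF20L1 peak also lay over ATP5PF start sites, those of ATP5PF-203 at 25735639 and ATP5PF-202 at 25735646. The CCGGAAGT copy ended 1 bp from the ATP5PF MANE TSS, on the upstream side, and read in the sense direction for ATP5PF. For GABPA it read antisense, with its core 64 bp upstream of the TSS. The second form lay in an exon of GABPA, with its core 108 bp downstream of the GABPA TSS. It ended 174 bp upstream of the ATP5PF MANE TSS. Neither the PHF20 nor the PHF20L1 peak, each over start sites of both genes, can be assigned to either gene from its position.

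A 300-base stretch of the GABPA peak is printed because it holds both start sites and both longer forms. It reads 5′ to 3′ on the plus strand of hg38, chr21:25734844-25735143, with every ETS form or GGAA core in capitals. The forms stand here as ACTTCCGG and CTTCCGG, since they lie on the minus strand.
GABPA: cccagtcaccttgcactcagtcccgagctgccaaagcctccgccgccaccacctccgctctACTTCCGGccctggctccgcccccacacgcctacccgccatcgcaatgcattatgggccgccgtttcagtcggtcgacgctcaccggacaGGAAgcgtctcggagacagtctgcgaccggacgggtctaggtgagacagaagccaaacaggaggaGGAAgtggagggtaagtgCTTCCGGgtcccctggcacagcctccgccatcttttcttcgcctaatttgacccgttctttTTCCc

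GABPB2, on the plus strand of chromosome 1 (151070578 to 151125542, ENSG00000143458.12), encodes a partner subunit of GABP and was the other gene with peaks of both proteins. The PHF20 peak spanned chr1:151070461-151070967 and was 507 bp wide, narrower than the PHF20 median of 599 bp, with 40.0% of the list narrower still. The PHF20L1 peak spanned chr1:151070481-151070909 and was 429 bp wide, wider than the PHF20L1 median of 314 bp, with 74.4% of that list narrower. Here the peaks lay almost on top of each other. They were called in separate cells, so whether both proteins were on the same DNA was not measured. The PHF20L1 peak covered 84.6% of the PHF20 peak, the centres were 66 bp and 47 bp upstream of the MANE TSS, and both touched the windows of 4 of 6 transcripts.

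Unlike the PHF20 peak of GABPA, the GABPB2 peaks held none of the forms of 6 to 8 bases. The PHF20 peak had 8 GGAA cores, 7 of them also inside the PHF20L1 peak, and 1 copy of a 5-base form, CGGAA, a search added after the data were seen. Among the 907 PHF20 promoter peaks of similar width, 50.9% held CGGAAG. The stretch around the centre is printed to show a region in both peak lists without these forms, chr1:151070564-151070863, plus strand, GGAA cores (or TTCC, on the other strand) in capitals.
GABPB2: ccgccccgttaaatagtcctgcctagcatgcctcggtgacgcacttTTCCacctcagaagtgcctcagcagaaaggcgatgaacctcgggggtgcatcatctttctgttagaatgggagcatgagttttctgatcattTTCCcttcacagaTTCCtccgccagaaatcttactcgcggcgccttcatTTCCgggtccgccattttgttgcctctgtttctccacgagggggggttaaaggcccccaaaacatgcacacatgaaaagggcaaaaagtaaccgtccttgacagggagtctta

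The GC content of the GABPB2 peak, 54.8%, was higher than in only 17.1% of the PHF20 promoter peaks. CDC42SE1, which encodes an effector of the small GTPase CDC42, starts on the opposite strand 436 bp from the GABPB2 MANE TSS. Its start site was not under either peak. Both peaks lay whole within the 1000 bp upstream of that start site, and so in the promoter window of CDC42SE1 as well. By the window rule, their position does not assign them to either gene.

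GABPB1, on the minus strand of chromosome 15 (50275389 to 50355408, ENSG00000104064.18), encodes the other partner subunit and had a PHF20 peak alone. It spanned chr15:50354981-50355701, 721 bp, with 60.6% of the PHF20 peaks narrower. Its centre lay 143 bp upstream of the MANE TSS, and it touched the windows of 8 of 11 transcripts. The windows of the remaining 3, which start within the gene, held no peak. The nearest PHF20L1 peak was 68378 bp away, at USP8, a deubiquitinating enzyme.

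The GABPB1 peak was rich in GGAA cores, with 13 where the 1009 PHF20 promoter peaks of similar width had a median of 8, and 13.8% of those had at least as many. Its single CGGAAG lay near the upstream end of the peak, with its core 17 bp from the edge and 486 bp upstream of the MANE TSS. The antisense noncoding gene GABPB1-AS1 shares this promoter: 7 of its transcripts started under the peak, and 1 of them 7 bp from the GABPB1 MANE TSS. Here too the position of the peak does not assign it to either gene.

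ELK4, on the minus strand of chromosome 1 (205597556 to 205632011, ENSG00000158711.14), encodes a ternary complex factor. Its PHF20 peak, chr1:205631616-205632047, was the narrowest of the members at 432 bp, with 30.6% of the list narrower. It lay mostly inside the gene, reaching 36 bp upstream of the MANE TSS and 395 bp downstream, with its centre 180 bp downstream. It touched the windows of 3 of 5 transcripts. The nearest PHF20L1 peak was at NUCKS1, 118457 bp away.

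Within that peak the CCGGAAGT lay at the upstream edge, in the sense direction. Its core was 18 bp upstream of the MANE TSS and 18 bp from the end of the peak. Only 8.79% of the 774 PHF20 promoter peaks of similar width held the full form. The GGAA cores were few, 3 in all with that of the full form, against a median of 5 in the similar peaks. The peak had 4 GC boxes (GGGCGG), a count that 12.4% of those peaks reached. Its GC content was 78.2%, higher than in 97.9% of the PHF20 promoter peaks, and its CpG observed/expected ratio, which compares the count of CG pairs with that of a random order of the same bases, was 1.06. The stretch from the upstream edge is printed to show the full form beside the start site, chr1:205631748-205632047, on the minus strand and so in the direction of the gene.
ELK4: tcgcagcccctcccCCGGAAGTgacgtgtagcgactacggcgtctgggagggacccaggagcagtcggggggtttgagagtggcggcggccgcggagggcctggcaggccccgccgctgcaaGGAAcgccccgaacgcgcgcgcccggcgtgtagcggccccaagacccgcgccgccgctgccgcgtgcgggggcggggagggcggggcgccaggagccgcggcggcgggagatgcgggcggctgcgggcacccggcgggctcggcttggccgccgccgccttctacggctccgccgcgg

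ELF2, on the minus strand of chromosome 4 (139028112 to 139177218, ENSG00000109381.21), encodes an ETS factor of the ELF group, and its PHF20 peak was at an internal start site. The peak spanned chr4:139084086-139084679, 594 bp, close to the median of the list. It touched the windows of 5 of 13 transcripts, all of which start within the gene, and its centre lay 92836 bp downstream of the MANE TSS. The window of the MANE TSS held no peak of either protein, although its GC content (73.0%) was higher than in 97.6% of the MANE windows of coding genes. Of the 3977 coding genes with a MANE transcript and a PHF20 promoter peak, 305 (7.67%) likewise had none in the MANE window.

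Measured from the nearest internal TSS, the 2 CGGAAG copies of ELF2 had their cores 164 bp and 315 bp upstream, 1 in each direction. Of the 924 PHF20 promoter peaks of similar width, 24.0% held at least 2 copies. The MANE window held no CGGAAG, and the windows of the 5 internal start sites with the peak held both copies. The nearest PHF20L1 peak was 1347014 bp away, at ELMOD2.

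**Figure D2:**
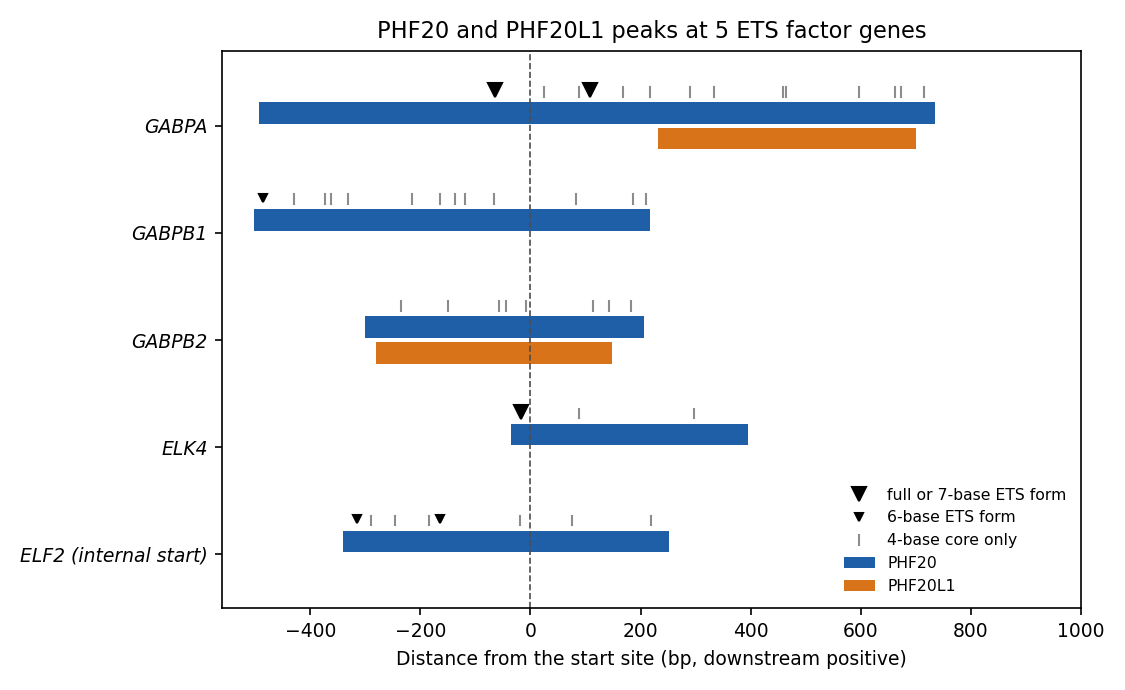
PHF20 (blue) and PHF20L1 (orange) peaks at the 5 genes, by distance in bp from the MANE start site (for ELF2, from the nearest internal start site), with the direction of each gene to the right. Triangles mark CCGGAAGT or CCGGAAG (large) and CGGAAG (small) and ticks mark other GGAA cores. The GABPA PHF20L1 peak begins 231 bp downstream of the start site and past both triangles, while that of GABPB2 covers 84.6% of the PHF20 peak.

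Over the 5 PHF20 peaks there were 46 GGAA cores, 40 of them in no longer form. The other 6 were the copies printed above, and 5 of these 6 lay upstream of the TSS from which they were measured. Of the 46 cores, 17 read in the direction of the gene and 29 against it. Of the 46, 14 lay inside a PHF20L1 peak.

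CCGGAAGT was in 2 of the 5 PHF20 peaks of the members and in 0 of the 2 PHF20L1 peaks. Of all PHF20 promoter peaks 17.1% held it, and of all PHF20L1 promoter peaks 17.7%. Counted by gene, the MANE windows of 8.64% of coding genes held it, and PHF20 was at 50.3% of the windows with it and at 16.3% of those without. That difference is the pattern for which the members were chosen. It was smaller among MANE windows with a CpG observed/expected ratio of at least 0.6. There PHF20 was at 53.7% of the windows with CCGGAAGT and at 24.8% of those without. CGGAAG stood in 4 of the 5 PHF20 peaks, where 57.8% of all PHF20 promoter peaks held it.

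Of the other sequences searched, an E-box (CACGTG) was in the GABPA peak, within the stretch shared with PHF20L1, and 16.6% of PHF20 promoter peaks held one. The NRF1 sequence GCATGCGC was also in the GABPA peak (4.34% of PHF20 promoter peaks). A GC box was in 4 of the 5 PHF20 peaks, GABPB1 being without one, and 78.2% of PHF20 promoter peaks held one. CCAAT was in GABPA only among the 5 (40.8% of PHF20 promoter peaks), and neither TGACGTCA nor ACTACAATT was in any of them (3.94% and 0.444%). A match describes the letters and not an occupied site, and a missing match concerns these letters in this window.

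**Figure D3:**
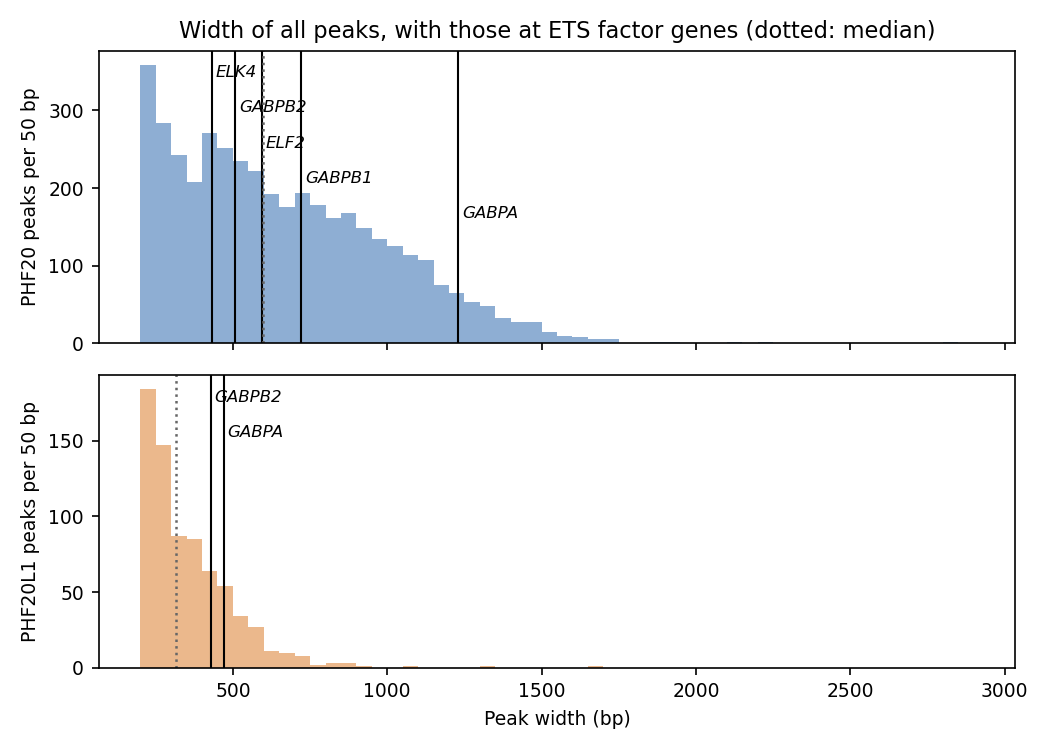
Number of peaks by width, in bins of 50 bp, for PHF20 (top, 4147 peaks) and PHF20L1 (bottom, 723 peaks), with the median dotted and the peaks at the ETS factor genes as labelled lines. GABPA lies in the right tail of the PHF20 list at 1230 bp, and both PHF20L1 peaks, at 429 and 470 bp, lie above the PHF20L1 median of 314 bp.

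The widths of the 5 PHF20 peaks ran from 432 bp at ELK4 through 507 bp at GABPB2, 594 bp at ELF2 and 721 bp at GABPB1 to 1230 bp at GABPA, with a median of 594 bp. Over all coding genes with a PHF20 promoter peak, the median of the widest peak was 682 bp. Apart from GABPA, only the GABPB1 peak was wider than this value or than the PHF20 list median of 599 bp. Leaving GABPA aside, the share of the list that was narrower ran from 30.6% for ELK4 to 60.6% for GABPB1. Width here is the length called and not a strength of binding.

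The 5 genes without a peak also lay far from any, relative to the 500 and 1000 bp limits of the window. ELK1, a ternary complex factor, was nearest: the PHF20 peak chrX:47658838-47659404 and the PHF20L1 peak chrX:47658949-47659217, at UXT, were 8234 bp and 8345 bp from its nearest TSS. For ELF1 the nearest PHF20 peak was 59915 bp from a TSS, at the noncoding gene SUGT1P3, and the nearest PHF20L1 peak was 210908 bp away, at MRPS31. That PHF20 peak, chr13:40921454-40922310, lay nearer to the far end of the ELF1 gene body, at 40931924, than to any ELF1 TSS. For ELK3 the distances were 251243 bp (CCDC38) and 7701640 bp (UQCC6). ETV6, which encodes a repressor of the ETS family, was 381112 bp from a PHF20 peak (LRP6) and 725677 bp from a PHF20L1 peak (CREBL2). ETS1, the cellular relative of the viral gene that gave the family its name, was farthest from PHF20, at 2108407 bp, and 2328640 bp from PHF20L1 (SNX19). None of the 5 genes was close to the limits of the promoter window.

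None of the promoter windows of these 5 genes held the forms of 8 or 7 bases. The form CGGAAG was in all 4 windows of ELK1 and in 3 of the 8 windows of ETS1, each time the same copy, and in none of ELK3, ELF1 or ETV6. Both copies are printed for comparison with the bound members, on the strand that reads GGAA.
ELK1, chrX:47651021-47651026, plus strand: tgctgctcagCGGAAGcagggcttgt
ETS1, chr11:128523006-128523011, minus strand: tggaagcttaCGGAAGctcatggctg

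The copy in ELK1 began 417 bp upstream of the nearest TSS, antisense, and that in ETS1 696 bp upstream of the nearest TSS, in the sense direction. CGGAAG was therefore in windows without a PHF20 peak as well as with one, and 29.1% of all MANE windows with it had a PHF20 peak against 9.27% of those without.

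The windows were also compared by CpG content, which differed between promoters with and without PHF20: 28.2% of MANE windows with a CpG observed/expected ratio of at least 0.6 had one, and 4.91% of those below. The 10 genes had 62 distinct start sites, 38 with a ratio of at least 0.6. All 21 windows with a PHF20 peak were among these 38, with ratios from 0.668 to 0.937. Many of the 21 overlap, and they belong to the PHF20 peaks of only 5 genes. Of the 3672 MANE windows of coding genes with a PHF20 peak, 3314 had a ratio of at least 0.6, as had 11771 of all 19061 MANE windows. Each of the 10 genes had at least 1 window with a ratio of at least 0.6.

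Unbound members also had windows rich in CpG. The MANE window of ETV6 had a ratio of 0.935, higher than in 97.1% of coding genes, and no peak. ELK3 had 4 windows at or above 0.6, up to 0.792, and ELK1 had 4, up to 0.645. The MANE windows of ELF1 and ETS1 were poor in CpG, at 0.132 and 0.218, but other start sites reached 0.825 and 0.827, also without a peak. Which of these genes were transcribed in the cells was not measured in these lists.

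**Figure D4:**
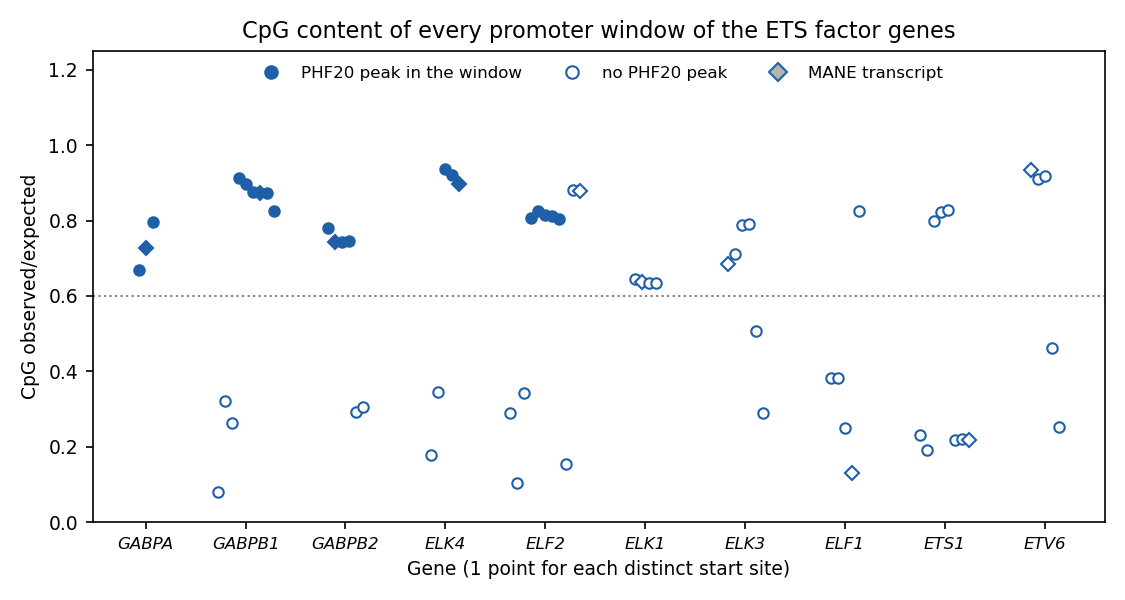
CpG observed/expected ratio of the promoter window of each of the 62 distinct start sites of the 10 genes, filled where a PHF20 peak touched the window and open where none did, with the MANE transcript as a diamond. The filled points lie between 0.668 and 0.937, all above the dotted line at 0.6, and open points lie above the line in ELF2 and in the 5 genes on the right.

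The rest of the ETS family was examined as well. Of 20 other genes with an ETS domain, PHF20 had a promoter peak at 1, ETV3, which encodes a repressor, and PHF20L1 at 0. The ETV3 peak spanned chr1:157138437-157139161, 725 bp, and held CGGAAG and no CCGGAAGT. SPI1, a regulator of myeloid cells, had a PHF20 peak in the gene body, chr11:47354978-47355476, 499 bp, 23164 bp downstream of the nearest SPI1 TSS. Of these 20 genes, 10 had a MANE window with a CpG ratio of at least 0.6, and 8 of the 10 members did. None of the 20 MANE windows held CCGGAAGT, and 2 of the 10 of the members did.

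Among 24 genes for cofactors, partners at shared sites and kinases of ETS factors, PHF20 was at 9 (37.5%) and PHF20L1 at 2 (8.33%). The shares of all coding genes were 20.7% and 3.82%. Of the 24, 23 had a MANE window with a CpG ratio of at least 0.6. Among all MANE windows of that kind, 28.2% had a PHF20 peak and 5.01% a PHF20L1 peak. KAT5, a histone acetyltransferase, had a PHF20 peak of 612 bp (chr11:65711766-65712377) and a PHF20L1 peak of 373 bp (chr11:65711905-65712277), and each held 2 copies of CCGGAAGT. The KAT5 peaks differed in this from those of GABPA and GABPB2, whose PHF20L1 peaks held none of the longer forms. At least 2 copies of CCGGAAGT were in 2.22% of PHF20 promoter peaks and 2.82% of PHF20L1 promoter peaks.

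By the widths of the peaks of both proteins, the coding gene most like GABPA among 747 with both was GFI1B (1242 bp and 465 bp, a distance of 13 bp over the 2 widths). For GABPB2 it was SLC35B2 (532 bp and 446 bp, a distance of 30.2 bp). This likeness uses 2 lengths only.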

How the data were processed

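HA ChIP-Seq of PHF20 and PHF20L1 in U2OS cells was analysed from the final peak lists. Per the submitters' processing notes, Bowtie 1.1.2 and MACS2 2.2.7.1 were used. The authors mapped reads to hg38, kept unique positions and 1 copy of each, called peaks against input, removed blacklisted regions, and retained peaks of the best replicate that overlapped those of the others; 1 PHF20 replicate was dropped by them. The deposited values, in neither a count nor a score unit, are start and end positions in bp, printed here from 1. The lists hold no depth.

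Peaks were compared with GENCODE release 44, later than the authors' release, at an overlap of at least 1 bp, leaving out mitochondrial genes. Sequences came from hg38 and were searched on both strands. No test was run. The members, the gene lists and the sequences searched were chosen with earlier results of these data known. Named genes were all members, other ETS genes with a peak, partner genes with peaks of both proteins, genes starting under or opposite a member promoter, the gene most like each member in widths, and the gene nearest each closest peak, though part of the partner results is not reported here. The alternatives tried were other TSS sets, windows, widths, overlaps and sequences. The searches, tested on simulated data, were written in Python 3.11.15 with samtools 1.23.1, pysam 0.24.0, numpy 2.4.6 and matplotlib 3.10.9.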

Additional observations from a re-analysis of the deposited data

How the results depend on the processing

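Most counts moved by at most 1.5 times under other windows, TSS sets, overlaps, widths and sequences (65 values), and 14 moved further. When peaks narrower than the median of each list were dropped, PHF20 remained at 2 members (GABPA and GABPB1), 1 partner gene and 2416 coding genes, PHF20L1 was at 423 coding genes, and 1 member had overlapping peaks. With peaks of at least 300 bp, PHF20L1 was at 455 coding genes. With the outermost TSS of each gene, PHF20L1 was at 1 member (GABPB2), and 1 had overlapping peaks. An overlap of at least 50% of both peaks also left 1. With CGGAAG in place of CCGGAAGT, 4 member PHF20 peaks held the sequence. With GGAA, 5 PHF20 and 2 PHF20L1 peaks did, and with CGGAA, a search added after the data were seen, 5 and 2. No paired analysis was possible because each protein has a single list, with nothing given per library, and for the same reason no replicate could be left out. Neither depth nor peak height can be taken from the lists.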

Other observations

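NRF1 and NCOR1, among the partner genes, each had 2 separate PHF20 promoter peaks, and 6.77% of coding genes with a PHF20 promoter peak had 2. They were chosen for mention after their peaks were seen. NRF1, a regulator of nuclear genes for mitochondrial proteins, had 2 peaks of 275 bp each, and NCOR1, a corepressor, had promoter peaks of 202 bp and 420 bp and a further peak of 571 bp in the gene body, which lies at the start of PIGL on the opposite strand.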
